A study of Mus musculus with 4 samples.

Results

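Meg3 and Miat are long non-coding RNAs, transcripts that are spliced and polyadenylated like messenger RNAs but are not translated into a known protein. Both were followed here by their UMI counts, the counts of unique molecular identifiers that each stand for 1 captured transcript, in single cells of 4 mouse medulloblastomas. They are 2 of the 15002 genes in the tables, and 3222 of 6734 deposited cell barcodes had the 500 UMIs required here to be called a cell. All 4 tumours, numbered 1 to 4, form 1 group. Each is labelled as taken on postnatal day 16 from an untreated animal that carried hGFAP-Cre, SmoM2 and homozygous floxed alleles of Prkaa1 and Prkaa2 (Prkaa1fl/fl, Prkaa2fl/fl). SmoM2 is an activated form of the hedgehog transducer Smoothened, and Prkaa1 and Prkaa2 encode the catalytic subunits of AMP-activated protein kinase. The human GFAP promoter drives Cre in neural stem and progenitor cells, from which much of the brain, cerebellar granule neurons included, derives. The row for the Cre transcript had 5 UMIs in the library labelled tumour 1, at 7.03 CPM (counts scaled to 1000000 UMIs) in Meg3-negative cells, against 681, 995 and 1633 CPM in those of tumours 2, 3 and 4. This count is low beside those of the other tumours with the same label, and the reason was not examined. The main differences are therefore also given without tumour 1. Every tumour is labelled with the floxed alleles of both kinase genes, so nothing below compares genotypes, and the loss of the kinase was not checked here. Cells were freed with papain and captured by Drop-seq, which reads the 3′ end of polyadenylated RNA.

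Medulloblastoma of the hedgehog type arises from granule neuron progenitors, and its cells span dividing progenitors and neurons that have left the cell cycle. Meg3 is the maternally expressed transcript of the imprinted Dlk1-Dio3 locus, is abundant in mature neurons, holds back growth when expressed in tumour cell lines, and has been reported to bind the histone methyltransferase complex PRC2. Miat, also called Gomafu, stays in the nuclei of neurons and carries repeats of the intron branch point sequence, through which it binds the splicing factors SF1, Celf3 and Qk. Neurod1 is a transcription factor that starts granule neuron differentiation. Cntn2 (TAG-1) is an axonal adhesion protein of granule neurons that have just stopped dividing and extend their first axons.

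In GENCODE M21 (GRCm38, the mm10 build that the submitters' processing notes name), Meg3 lies at chr12:109541001-109571726 on the plus strand, with 11 transcripts and 31 distinct exons. Miat lies at chr5:112213228-112229395 on the minus strand, with 6 transcripts and 20 distinct exons. Both are annotated as intergenic non-coding genes. The promoters are shown because both RNAs were higher in neuronal than in dividing cells. Each runs from 250 bases before to 50 bases after a start site in RefSeq, for Meg3 the first of 2, (GRCm38.p6), 5′ to 3′ on the gene's own strand. Capitals mark the cyclic AMP response element TGACGTCA and any E-box CANNTG, the site class that Neurod1 and other basic helix-loop-helix factors bind.
Meg3 promoter, chr12:109540746-109541045, plus strand: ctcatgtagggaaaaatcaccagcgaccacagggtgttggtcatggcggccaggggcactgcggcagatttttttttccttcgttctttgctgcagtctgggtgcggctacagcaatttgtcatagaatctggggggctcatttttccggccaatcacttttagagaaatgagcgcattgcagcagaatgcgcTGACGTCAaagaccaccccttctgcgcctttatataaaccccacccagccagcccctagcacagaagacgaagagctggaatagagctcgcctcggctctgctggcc
Miat promoter, chr5:112228899-112229198, minus strand: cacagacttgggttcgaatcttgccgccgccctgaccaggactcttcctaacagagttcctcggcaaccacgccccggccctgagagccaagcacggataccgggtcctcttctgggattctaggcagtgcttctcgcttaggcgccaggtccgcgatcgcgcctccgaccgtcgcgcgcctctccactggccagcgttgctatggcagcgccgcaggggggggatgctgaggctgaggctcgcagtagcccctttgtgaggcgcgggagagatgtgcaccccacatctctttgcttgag
The Meg3 window held 1 TGACGTCA, which 1.79% of 32851 mouse promoter windows of that length hold, and its GC content was 53.7%. The Miat window had a GC content of 64.3% and no TGACGTCA. Neither window held a CANNTG on either strand, a motif found in 72.3% of the windows. RefSeq gives Meg3 a further start site, whose window at chr12:109545148-109545447 held 1 CANNTG and no TGACGTCA. The letters are a description of these windows and say nothing of what binds there.

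The branch point repeats were found in the long Miat transcripts. The motif TACTAAC occurred 6 times on the sense strand of Miat-205, a transcript of 9163 bases, and 6 times in Miat-201, of 8758 bases. The other 4 Miat transcripts, of 284 to 747 bases, and the 11 Meg3 transcripts held none. Of 4357 long non-coding transcripts of at least 2000 bases, 9.09% held at least 1 copy, and the 2 with at least 6 were both of Miat. Among all 18930 of any length 3 reached 6, the third from the gene AC154442.1. Copies 1, 2 and 6 of Miat-205 are shown with the motif in capitals, and they begin at transcript positions 4941, 5041 and 5623.
Miat-205 copy 1: tgtgattaaccTACTAACcaacccagggct
Miat-205 copy 2: cgagcatgtccTACTAACcccgcagcagcc
Miat-205 copy 6: gtttctcttctTACTAACccagccctgccg
Other annotated genes overlap both loci. Gm26953 overlaps Miat on the opposite strand and has its own row, with 17 UMIs, 16 of them in Miat-positive cells (13 in tumour 1 and 3 in tumour 2). Whether the counting used the strand is not given in the sources used here, so reads of this gene and of Miat cannot be told apart here. The overlapping Mir770, Mir1906-1 and antisense Gm26906 of the Meg3 locus have no row.

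The 4 libraries gave 766, 807, 566 and 1083 cells with medians of 826.5, 749, 806.5 and 972 UMIs. Libraries 1 and 2 stood apart from libraries 3 and 4: the summed profiles correlated at r = 0.959 and 0.963 within these pairs and at 0.759 to 0.837 across them, over 8900 genes. Mitochondrial genes took a median of 10.2% and 11.6% of a cell's UMIs in the first pair and of 2.33% and 1.79% in the second. The labels name no batch for these pairs, and results are given within each pair where that changes a call. No cell barcode was shared between the cells of different libraries. Cells were placed in a class by 3 lists of 20 genes, mitotic, S-phase and neuronal, none of which holds Meg3, Miat, Neurod1 or Cntn2. A cell took the class of the list with the most distinct genes detected, at least 2 and more than for either other list. This gave 854 mitotic, 416 S-phase and 1562 neuronal cells, and 331 stayed unclassified. A further 59 cells had at least 4 genes of a microglial, endothelial, mural or oligodendrocyte list and were set aside. Since the same counts set a cell's class, a test between classes describes how they differ and not that they exist.

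Meg3 was sparse and found mostly in neuronal cells. It had 230 UMIs in 144 cells, 4.47% of all cells, and 97 of these cells held a single UMI. In neuronal cells its level in CPM of the class's UMIs, read from tumour 1 to tumour 4, was 201, 100.1, 196 and 87. These average 146 ± 61.0 (SD, n = 4). In mitotic cells it was 12.8, 48.7, 28.1 and 15.3 CPM, on average 26.2 ± 16.4 (SD, n = 4). Every neuronal value lay above every mitotic value. Neuronal cells held 83.9% of all Meg3 UMIs and made up 48.5% of the cells. The ratio of neuronal to mitotic CPM was 15.7, 2.05, 6.99 and 5.67 in tumours 1 to 4, and 6.04 over all cells, with an exact 95% interval of 3.94 to 9.65 that covers counting error only. In tumour 2 that interval was 0.992 to 4.66.

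S-phase cells had a single Meg3 UMI. Tumour 3 contributed it (9.80 CPM), and tumours 1, 2 and 4 had 0 UMIs, which allows up to 53.7, 40.9 and 13.6 CPM (3 counts of the class total). The neuronal level was 3.75, 2.45 and 6.41 times that limit in tumours 1, 2 and 4, and the exact lower limits of the ratio were 2.98, 1.88 and 4.96. Over all tumours the ratio was 63.1 with a counting interval of 11.2 to 2506. S-phase cells were read at a median of 966.5 UMIs and neuronal cells at 762. The unclassified cells had 2 Meg3 UMIs, 7.10 ± 8.24 CPM (SD, n = 4).

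Miat was broader. It had 1686 UMIs in 1047 cells, 32.5% of all cells, and was detected in every class of tumour cell. Its level in neuronal cells was 1229, 768, 508 and 430 CPM from tumour 1 to tumour 4, averaging 734 ± 360 (SD, n = 4). In mitotic cells it was 725, 477, 147 and 171 CPM, and in S-phase cells 859, 654, 265 and 280 CPM. The ranges of the 3 classes overlapped across tumours, and tumours 1 and 2 were above tumours 3 and 4 in each of the 3. Within each tumour the order was the same: neuronal above S-phase above mitotic. The neuronal to mitotic ratio was 1.70, 1.61, 3.45 and 2.52 in tumours 1 to 4, and the neuronal to S-phase ratio 1.43, 1.17, 1.92 and 1.53.

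**Figure D1:**
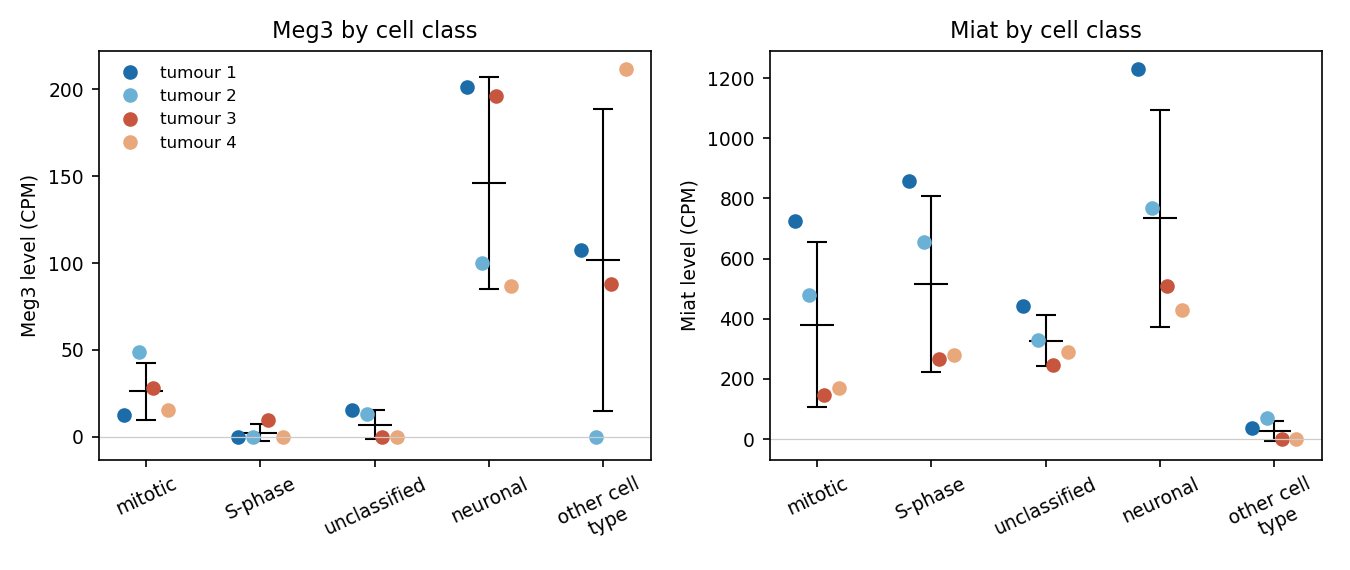
Level of Meg3 (left) and Miat (right) in CPM, by cell class, with a point for each tumour and the mean ± SD (n = 4) in black. Meg3 lies at 87 to 201 CPM in neuronal cells and at 0 to 9.80 CPM in S-phase cells, whereas Miat lies at 147 to 859 CPM in mitotic and S-phase cells.

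Both rises passed the test over tumours. In edgeR's quasi-likelihood test on sums per tumour and class with the tumour as a block, 26.1% of 5250 genes were called between neuronal and mitotic cells, 12.7% higher and 13.4% lower in neuronal cells. Meg3 was 2.42 ± 0.30 higher on the log2 scale (edgeR adjusted p = 3.83e-09) and Miat 1.01 ± 0.14 higher (edgeR adjusted p = 2.19e-08), where ± is the standard error. Against S-phase cells 23.3% of genes were called, 10.5% higher and 12.8% lower. Meg3 was 5.56 ± 0.66 higher (edgeR adjusted p = 1.71e-09), a fitted value that rests on 1 UMI in S-phase cells, and Miat was 0.57 ± 0.15 higher (edgeR adjusted p = 0.00332). Meg3 passed the filter on low counts through the neuronal sums, where it is high, so its p-values in both contrasts are a description. Without tumour 1, Meg3 was 2.02 higher than in mitotic cells (edgeR adjusted p = 4.06e-06) and 5.27 higher than in S-phase cells (edgeR adjusted p = 4.20e-08). The 5.27 again rests on 1 S-phase UMI. Miat was then 1.16 higher than in mitotic cells (edgeR adjusted p = 8.52e-08) and 0.62 higher than in S-phase cells (edgeR adjusted p = 0.00768). With tumours 1 and 2 alone the last difference was 0.46 with an edgeR adjusted p of 0.152. Without the tumour block, Miat lost both calls (edgeR adjusted p of 0.555 and 0.740) and Meg3 kept both (0.00597 and 0.00188).

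The dividing classes were also set against each other, a contrast added after the values were seen, in which 5.22% of genes were called, 1.75% higher and 3.47% lower in S-phase cells. Meg3 was lower in S-phase than in mitotic cells by a log2 difference of -3.14 ± 0.99 (edgeR adjusted p = 0.0495). This call compares 1 UMI with 24, was lost with DESeq2 (adjusted p = 0.137) and held under 4 of 15 alternatives. Miat was 0.43 ± 0.17 higher in S-phase cells, in 4 of 4 tumours, and did not pass the test (edgeR adjusted p = 0.138).

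A few cells held much of the Meg3. The 8 cells with at least 4 Meg3 UMIs carried 46 UMIs, 20% of the total, and the highest had 9. All 8 were of the neuronal class, with 4 to 12 distinct neuronal-list genes each. The deepest of them, a cell of tumour 1 with 11261 UMIs, also had 8 of the 10 astrocyte-list genes. In Miat-positive cells the highest count was also 9, and the 54 cells with at least 4 UMIs held 16% of its total.

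Both RNAs were also counted in cells of other types. Miat was found in 2 of 22 cells with microglial markers and in 0 of 18 with endothelial markers, which allows a share of up to 16.7% (a count of 0 allows up to 3 cells). These cells were read at medians of 1265 and 1619 UMIs, deeper than tumour cells. Over all 59 cells of other types Miat was at 26.2 ± 33.1 CPM (SD, n = 4), below its level in every tumour cell class. Meg3 was found in 1 of 22 microglial, 1 of 18 endothelial and 1 of 4 mural or fibroblast cells. It was found in 4 of 18 cells with oligodendrocyte-lineage markers (22.2%, exact 95% interval 6.41 to 47.6%). Over all 59 it was at 102 ± 86.9 CPM (SD, n = 4), with 0 UMIs in those of tumour 2. This was below its neuronal level in tumours 1, 2 and 3 and above it in tumour 4, at 212 against 87 CPM. Its unthinned share was 11.7% ± 8.92 in these cells and 7.71% ± 2.03 in neuronal cells (SD, n = 4). Unthinned, Meg3 was found in 2.07% ± 1.15 of mitotic cells (SD, n = 4), and in 4.55% of microglial cells (exact 95% interval 0.12 to 22.8%) and 5.56% of endothelial cells (0.14 to 27.3%). These few cells do not tell Meg3 in mitotic cells from free RNA. Miat was found in 26.9% ± 13.9 of mitotic cells, against 9.09% of microglial cells (exact 95% interval 1.12 to 29.2%), and of 2.64% ± 3.06 of all cells of other types (SD, n = 4). In CPM, the exact 95% intervals of Miat in mitotic cells lay above those in cells of other types in tumours 1, 2 and 4. In tumour 3, with few cells of other types, they overlapped. In the 57 cells with at least 3 astrocyte-list genes, 8 (14.0%) had Meg3 and 17 (29.8%) had Miat.

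The share of cells with a UMI was compared at a fixed depth, after each cell was thinned to 500 UMIs. Meg3 was then found in 3.34% ± 0.90 of cells and Miat in 22.1% ± 10.1 (SD, n = 4). By class, Meg3 was found in 6.03% ± 1.93 of neuronal and 0.80% ± 0.66 of mitotic cells, and Miat in 27.9% ± 12 and 15.3% ± 7.60. The shares were then followed along the number of distinct neuronal-list genes in a cell. Meg3 was found in 1.41%, 0.32%, 2.07%, 1.80% and 6.64% of cells with 0, 1, 2, 3 and at least 4 such genes, as means over tumours. Miat went from 16.9% at 0 to 21.6% at 3 and 28.9% at 4 or more. Cells with 4 or more neuronal-list genes had the highest Meg3 share in each tumour, between 4.61% and 8.39%. Neurod1 went from 19.8% to 61.4% over the same range and Cntn2 from 5.31% to 41.9%.

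**Figure D2:**
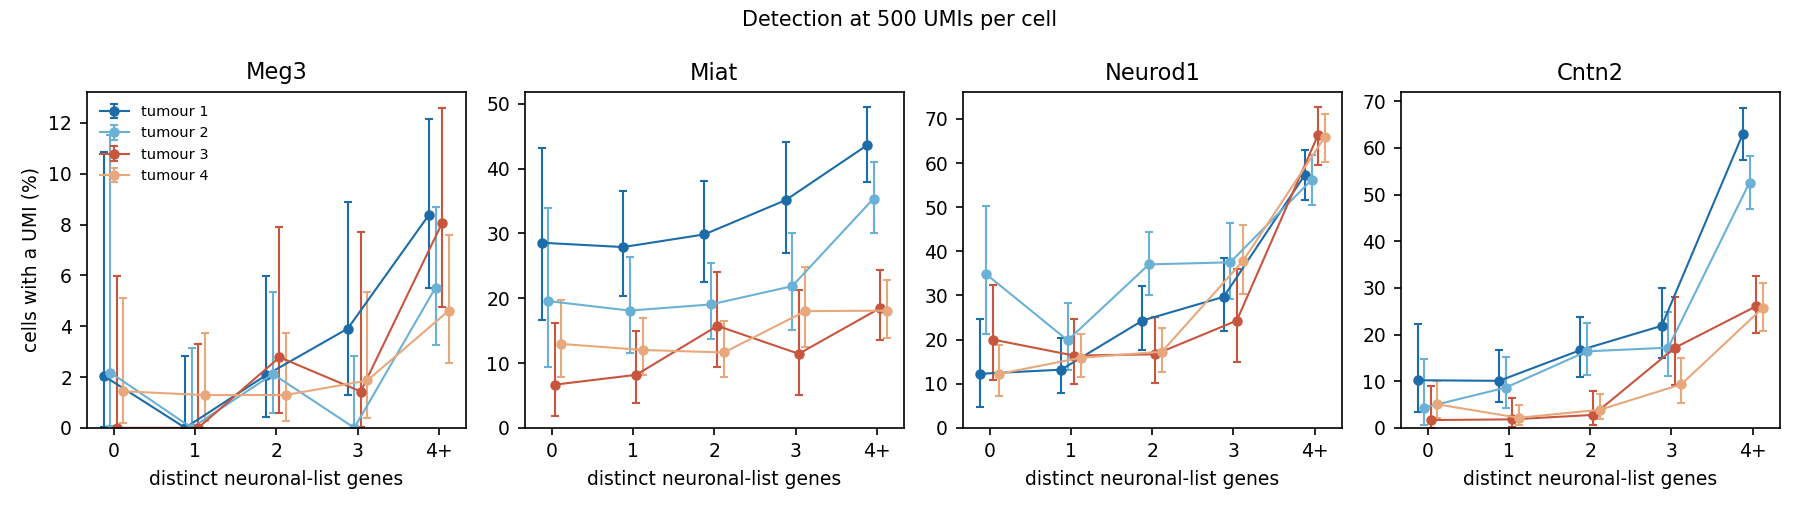
Share of cells with a UMI of Meg3, Miat, Neurod1 and Cntn2 after thinning to 500 UMIs, by the number of distinct neuronal-list genes detected in the cell, 1 line per tumour with exact 95% binomial intervals. Meg3 reaches 4.61 to 8.39% only in the last bin, Miat starts at 6.67 to 28.6% in cells with 0 neuronal-list genes, and the Miat and Cntn2 lines of tumours 1 and 2 lie above those of tumours 3 and 4 in the last bin.

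Meg3 and Miat were not found together more often than their separate shares would give. At 500 UMIs per cell 25 cells had both, against 24.2 from the product of the shares in all cells. The ratio of observed to product was 1.26, 0.90, 0.70 and 0.77 in tumours 1 to 4. Within neuronal cells 24 cells had both against 26.5. In unthinned cells, Miat was at 813, 271, 347 and 369 CPM in Meg3-positive cells of tumours 1 to 4 and at 947, 614, 328 and 284 CPM in Meg3-negative cells. It was higher in 2 of 4 tumours, with a log2 difference of -0.27 ± 0.26 (edgeR adjusted p = 0.715). In the other direction, Meg3 was at 93.0, 31.5, 63.4 and 48.8 CPM in Miat-positive cells and at 129, 82.2, 104 and 37.5 CPM in Miat-negative cells, a log2 difference of -0.53 ± 0.24 (edgeR adjusted p = 0.376). The Meg3 split called 2.01% of genes, 0.936% higher and 1.07% lower, and the Miat split 1.69%, 0.936% higher and 0.749% lower. A p above the threshold does not show that the values are equal.

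Neurod1-positive cells had more of both RNAs. Meg3 was at 177, 70.7, 141 and 55.8 CPM in Neurod1-positive cells of tumours 1 to 4 and at 37.7, 51.9, 55.5 and 27.9 CPM in Neurod1-negative cells. Every positive value lay above every negative value, the closest being 55.8 and 55.5 CPM. Miat was at 1055, 697, 453 and 354 CPM against 811, 483, 225 and 231 CPM, higher in the positive cells of each tumour with overlap across tumours. This split called 9.84% of genes, 6.07% higher and 3.78% lower. Meg3 was 1.27 ± 0.25 higher on the log2 scale (edgeR adjusted p = 0.000738) and Miat 0.55 ± 0.11 (edgeR adjusted p = 0.000968). Without tumour 1 these were 0.94 (edgeR adjusted p = 0.0222) and 0.67 (edgeR adjusted p = 0.000633). Within neuronal cells alone, Meg3 was 0.91 higher (edgeR adjusted p = 0.0463) and Miat 0.38 higher (edgeR adjusted p = 0.112), each in 3 of 4 tumours. There Meg3 in tumour 2 was at 99.98 CPM in Neurod1-positive and 100.2 CPM in Neurod1-negative cells, and Miat in tumour 1 at 1220.4 against 1246 CPM. At 500 UMIs, 62 cells had Meg3 and Neurod1 against 37.6 from the product, and 312 had Miat and Neurod1 against 258.

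Cntn2-positive cells had more Miat. Miat was at 1396, 752, 595 and 525 CPM in Cntn2-positive cells of tumours 1 to 4 and at 646, 505, 268 and 235 CPM in Cntn2-negative cells. It was higher in each tumour, by 0.96 ± 0.12 on the log2 scale (edgeR adjusted p = 9.76e-09), in a split that called 18.9% of genes, 9.57% higher and 9.3% lower. Without tumour 1 it was 0.91 (edgeR adjusted p = 1.68e-08). Within neuronal cells alone the difference was 0.74 (edgeR adjusted p = 0.00229). Meg3 was at 168, 71.9, 100.8 and 66.7 CPM against 72.5, 56.1, 93.1 and 35.0 CPM, a log2 difference of 0.72 ± 0.24 (edgeR adjusted p = 0.0270). That call for Meg3 was lost with DESeq2 (adjusted p = 0.227), in either pair of tumours alone and when tumour 1 or tumour 4 was left out. Within neuronal cells alone its direction turned, to -0.28 (edgeR adjusted p = 0.586). Co-detection at 500 UMIs gave 252 cells with Miat and Cntn2 against 174 from the product, with ratios of 1.39, 1.39, 1.51 and 1.88 in tumours 1 to 4. Without the tumour block no call of either RNA was left in the Neurod1 and Cntn2 splits, with edgeR adjusted p between 0.506 and 0.999.

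**Figure D3:**
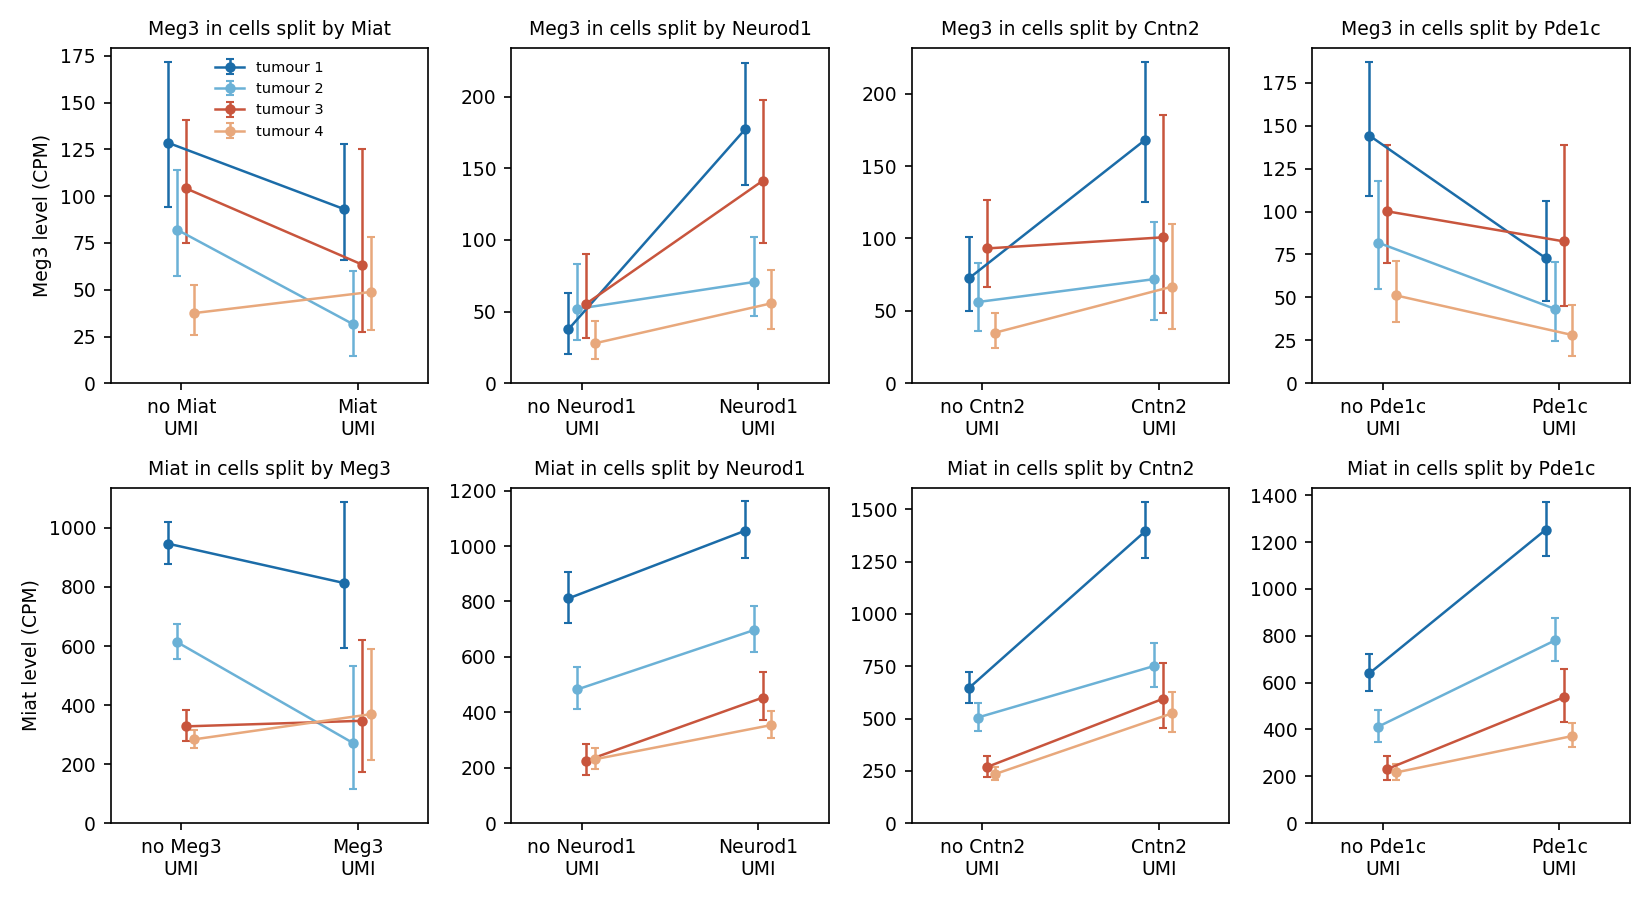
Level of Meg3 (top) and Miat (bottom) in CPM in cells without and with a UMI of the gene named above each panel, 1 line per tumour with exact 95% Poisson intervals. Miat is higher in Cntn2-positive and Pde1c-positive cells of all 4 tumours, Meg3 is higher in Neurod1-positive and lower in Pde1c-positive cells of all 4, and neither follows the other in all 4.

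Cells were also split by both genes at once. Meg3 was at 34.6 ± 17.9 CPM in 1372 cells with neither, 104 ± 47.7 in 893 with Neurod1 only and 126 ± 69.4 in 633 with both (SD, n = 4). In 265 cells with Cntn2 only it was at 58.2 and 128 CPM in tumours 1 and 2 and at 0 UMIs in tumours 3 and 4. These zeros come from 32 and 49 cells, with exact upper limits of 125 and 62.9 CPM. Miat was at 399 ± 218 CPM with neither and 479.8 ± 202 with Neurod1 only. It was at 869.6 ± 360 with both and 702 ± 509 with Cntn2 only. The mean for Cntn2 only was carried by tumour 1: from tumour 1 to tumour 4, Miat was at 1454, 554, 339.5 and 461 CPM with Cntn2 only and at 721, 567, 353 and 278 CPM with Neurod1 only, lower with Cntn2 only in tumours 2 and 3. Meg3 in tumour 2 was highest with Cntn2 only. The difference between these states was not tested.

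**Figure D4:**
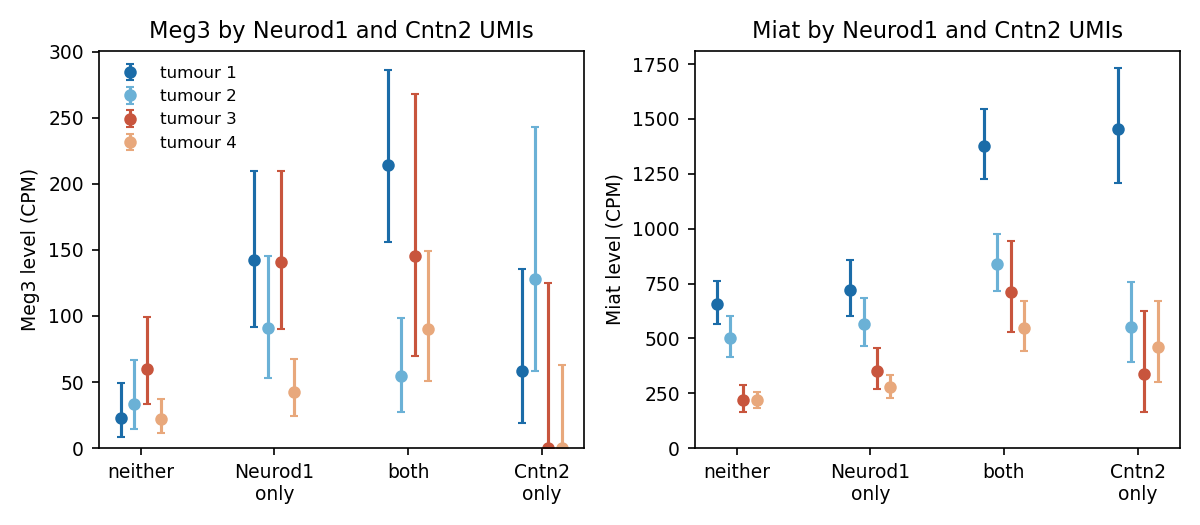
Level of Meg3 (left) and Miat (right) in CPM in cells with a UMI of neither Neurod1 nor Cntn2, of Neurod1 only, of both or of Cntn2 only, a point per tumour with exact 95% Poisson intervals. In each tumour Meg3 is higher with Neurod1 only than with neither, and Miat is higher with both than with Neurod1 only.

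The RNAs were also compared in cells with and without Pde1c, a calcium and calmodulin dependent phosphodiesterase. Miat was at 736 ± 384 CPM in the 1341 Pde1c-positive cells and at 375 ± 198 CPM in the others (SD, n = 4), higher in 4 of 4 tumours. Meg3 was at 56.7 ± 25.4 against 94.3 ± 38.9 CPM, lower in 4 of 4. At 500 UMIs, 321 cells had Miat and Pde1c against 222 from the product, and 20 had Meg3 and Pde1c against 30.6. In the Miat split, Pde1c was 0.87 ± 0.09 higher in Miat-positive cells (edgeR adjusted p = 1.20e-13). In the Meg3 split its difference was -0.75 ± 0.25 over all cells (edgeR adjusted p = 0.123) and -0.90 ± 0.23 within neuronal cells (edgeR adjusted p = 0.0454). Sstr2, a somatostatin receptor, passed in neither split, with edgeR adjusted p of 0.418 for Miat and 0.704 for Meg3. Abca4, a retinoid transporter, had 40 UMIs, all in tumour 1, and allowed no comparison.

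Meg3-positive cells had more of some neuronal and glial genes and less of dividing-cell genes. The split called 103 of 5129 genes, 48 higher and 55 lower. The balance was 38 higher and 18 lower with DESeq2, 29 and 8 with tumours 3 and 4 alone, 25 and 102 after thinning, and 75 and 293 with no filter on low counts. Of the Meg3-positive cells 118 of 144 were neuronal, and of the negative 1444 of 3078. In neuronal cells alone the split called 23 genes, 13 higher and 10 lower. Of 19 neuronal-list genes tested over all cells, 4 were higher and none lower, with a median of 0.66 against -0.08 over all genes. They were Nfasc (neurofascin, 2.30 ± 0.54 on the log2 scale), Syt1 (synaptotagmin of synaptic vesicles, 2.18 ± 0.50), Mapt (tau, 1.70 ± 0.29) and Grin2b (NMDA receptor subunit, 1.66 ± 0.40). Nfasc and Syt1 were at 22.8 and 28.9 CPM in Meg3-negative cells, against 123 and 154 CPM in positive cells. Both passed the filter on low counts with the help of the positive sums, where they are high, so their calls only describe the split. Of 20 mitotic-list genes 8 were lower and none higher, with a median of -1.30, and of 18 S-phase genes 2 were lower. The summed neuronal list was at 11325 ± 1424 CPM in Meg3-positive cells and 7624 ± 875 in Meg3-negative cells, higher in 4 of 4 tumours. The summed mitotic list was at 3279 ± 1260 against 8092 ± 1702 CPM (SD, n = 4). Of the oligodendrocyte-list genes 2 of 6 tested were higher, and the list's sum ranged from 795 to 17433 CPM in positive cells and from 497 to 1282 CPM in negative cells. The 17433 CPM was tumour 3, with 553 UMIs in 32 cells, and tumour 4 was at 1151 against 1019 CPM. A few cells can carry such sums. The astrocyte list was higher in 3 of 4 tumours, at 410 to 2186 against 519 to 1183 CPM. The microglial list was higher in 1 of 4, at 31.5 to 3843 against 204 to 566 CPM, and the 3843 CPM was 177 UMIs in 39 cells of tumour 4. With glial and other cells removed 258 of 5039 genes passed, and Syt1 (2.45) and Mapt (1.83) were still called. Without tumour 2 only 12 genes passed, and 59 without tumour 4. Without the tumour block edgeR called 0 genes, with 423 at an unadjusted p under 0.05, and DESeq2 with the block called 56.

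Miat-positive cells had more of some neuronal-list genes and less of the microglial, endothelial and oligodendrocyte sums. The split called 108 of 6407 genes, 60 higher and 48 lower. The balance turned to 15 higher and 48 lower without tumour 4 and to 24 higher and 98 lower with tumours 1 and 2 alone, and was 19 and 29 after thinning and 68 and 149 with no filter on low counts. Of the Miat-positive cells 606 of 1047 were neuronal, of the negative 956 of 2175, and in neuronal cells alone the split called 10 genes, 4 higher and 6 lower. Of 19 neuronal-list genes tested, 5 were higher and none lower: Dpysl3 (0.56 ± 0.16), Tubb3 (neuronal tubulin, 0.53 ± 0.10), Map2 (dendritic microtubule protein, 0.51 ± 0.09), Ank3 (ankyrin G of the axon initial segment, 0.45 ± 0.10) and Elavl3 (neuronal RNA-binding protein, 0.38 ± 0.09). Of 20 mitotic genes 1 was lower, and none of 20 S-phase genes was called. Cntn2 was 0.95 ± 0.10 higher (edgeR adjusted p = 8.19e-14) and Neurod1 0.37 ± 0.09 (edgeR adjusted p = 0.00558), the same pairs of genes as in the splits above. Among genes chosen after their values were seen, Nhlh1 and Nhlh2, transcription factors of newly formed neurons, were 0.63 ± 0.12 and 0.50 ± 0.11 higher. Lower were the microglial gene Ctss (-4.52; 1 tested), the endothelial gene Itm2a (-2.29; 1 tested), 1 of 5 astrocyte-list genes tested and 3 of 5 oligodendrocyte-list genes tested, and 0 of 1 mural gene. The summed microglial list was at 31.6 to 108 CPM in Miat-positive and 251 to 849 CPM in Miat-negative cells. With glial and other cells removed 46 genes passed, and Cntn2 (0.89) and Pde1c (0.81) remained called. Without the tumour block edgeR called 0 genes, with 77 at an unadjusted p under 0.05, and DESeq2 with the block called 20.

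**Figure D5:**
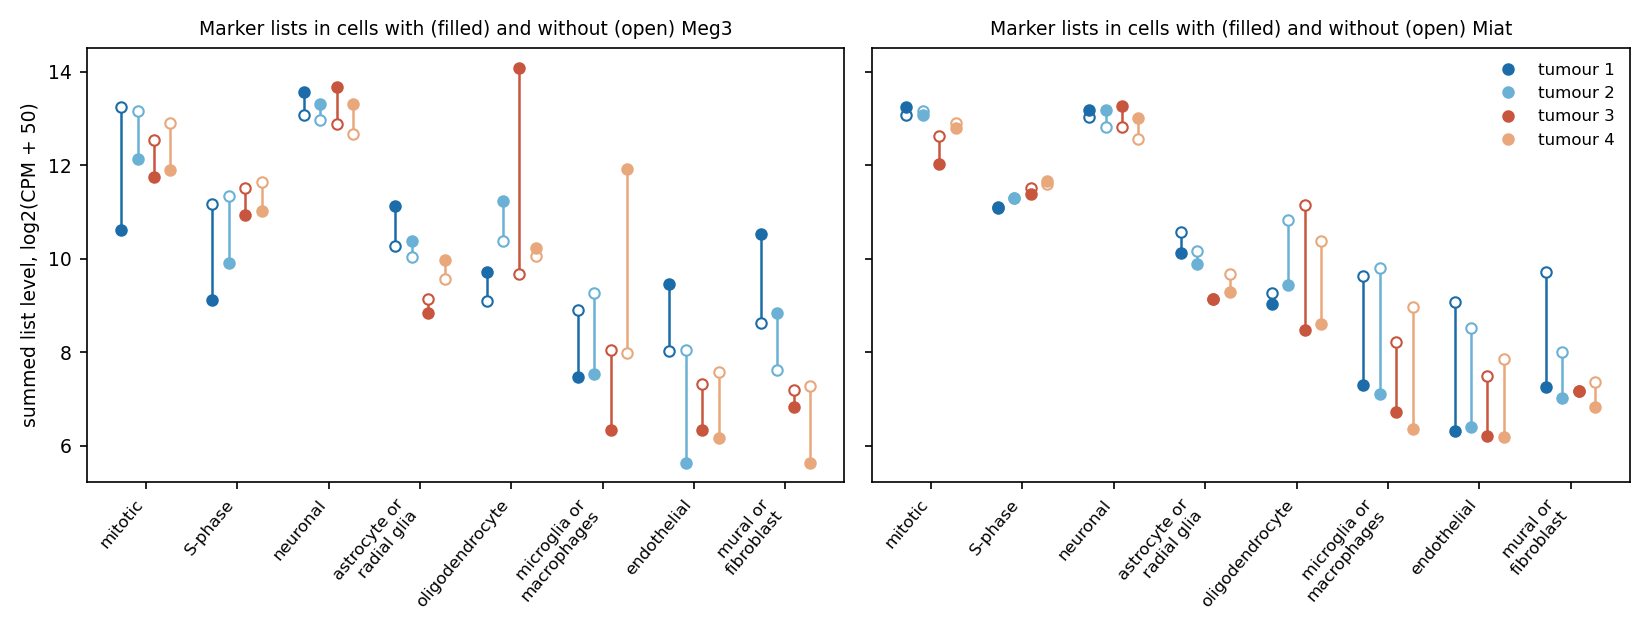
Summed level of each marker list, as log2(CPM + 50), in cells with (filled) and without (open) a Meg3 UMI (left) or a Miat UMI (right), joined within each tumour. Meg3-positive cells have less of the mitotic and S-phase lists and more of the neuronal and oligodendrocyte lists in all 4 tumours, whereas Miat-positive cells have less of the microglial, endothelial and oligodendrocyte lists in all 4.

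Listed neighbours and partners of both RNAs were followed across the classes. Of the 5 other genes listed for the Dlk1-Dio3 locus, 1 had a row, the non-coding Rian, with 9 UMIs: 8 in neuronal and 0 in mitotic and S-phase cells. It was too low to test. Of 24 other long non-coding RNAs listed, 14 had rows and 7 were tested. Against mitotic cells 2 were higher in neuronal cells and 1 lower, with a median of -0.19 against -0.01 over all genes, of which 12.7% were higher and 13.4% lower. The higher ones were Malat1, a nuclear RNA of all cells (0.39 ± 0.07, edgeR adjusted p = 9.43e-06), and 6330403K07Rik (1.21 ± 0.27, edgeR adjusted p = 0.000384). The host of small nucleolar RNAs Snhg1 was lower (-0.52 ± 0.19, edgeR adjusted p = 0.0384). Against S-phase cells (10.5% of all genes higher, 12.8% lower) 2 were higher and 3 lower: Snhg1, Snhg6 and Gas5, hosts of small nucleolar RNAs. Meg3's rise against mitotic cells was larger than that of each of the 7, as was its rise against S-phase cells. Miat's rises (1.01 and 0.57) were below those of 6330403K07Rik (1.21 and 1.07). These differences between genes were not tested.

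Of the proteins that bind Miat, the splicing regulator Celf3 was 1.62 ± 0.30 higher in neuronal than in mitotic cells (edgeR adjusted p = 2.39e-05). Sf1, which binds the branch point, was at -0.39 ± 0.21 (edgeR adjusted p = 0.160) and Srsf1 at -0.20 ± 0.23 (edgeR adjusted p = 0.575). Qk had no row. None of the 3 passed in the Miat split, where Celf3 was 0.42 ± 0.26 higher (edgeR adjusted p = 0.604). All 7 PRC2 genes listed were tested, and 5 fell in neuronal against mitotic cells with a list median of -0.74, where 13.4% of all genes fell. The methyltransferase Ezh2 fell from 797 CPM in mitotic to 426 CPM in neuronal cells (-0.98 ± 0.12, edgeR adjusted p = 1.76e-09). Suz12, Eed, Rbbp4 and Rbbp7 were the others, between -0.81 and -0.52. Against S-phase cells, where 12.8% of all genes were lower, the same 5 were lower, and the accessory subunit Jarid2 was higher (0.95 ± 0.27, edgeR adjusted p = 0.00767). In Meg3-positive cells Ezh2 was lower (-1.38 ± 0.28, edgeR adjusted p = 0.00755), and the other 6 were not called. Of the Meg3-positive cells 118 of 144 were neuronal, against 1444 of 3078 of the negative. The part of cell class in the Ezh2 difference was not tested.

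The genes most like each RNA were found over 23 profiles of cell state and tumour, centred within tumour, among 3528 genes. The 5 most like Meg3 were Malat1 (Pearson r = 0.82), Gpm6a (0.81), Pnmal2 (0.81), Epb4.1l1 (0.79) and Kifap3 (0.79). The 5 most like Miat were Uncx (0.82), Rufy3 (0.81), Mllt4 (0.79), Cdk5r1 (0.79) and Pgm2l1 (0.77). The lists share no gene. Miat ranked 274 for Meg3, with r = 0.48, and Cntn2 ranked 18 for Meg3 and 189 for Miat. Profiles of a tumour share a library, and each r is a description.

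The library pairs stood apart in Miat. Over all cells the first pair had 937 and 599.7 CPM of Miat and the second 329 and 287 CPM. This difference between libraries was not tested. Meg3 was at 109.6, 62.2, 94.5 and 40.7 CPM, in no such order. Cntn2 was split as Miat was, at 1086 and 884 against 310.0 and 236 CPM. The mitochondrial share moved with the pairs. In cells with at most 10% mitochondrial UMIs, Miat was at 1148 and 798 against 345 and 298 CPM of non-mitochondrial UMIs. In cells of tumours 1 and 2 with over 20% it was at 608 and 376 CPM. The part of the mitochondrial share in the gap was not tested. No label separates the pairs, and the library and the animal cannot be told apart.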

How the data were processed

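Per the labels' protocols, cells were freed with papain and 3′-biased Drop-seq libraries (protocol V3.1) were made from each tumour. The submitters' processing notes name STAR and mm10, with no version or role given in the sources used here. The deposited values are counts of UMIs per gene and barcode, whole numbers with no normalization. A further 6 tables with 11203 cell columns match no labelled sample and were not used. The members and gene lists were chosen with earlier results of these data known.

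Barcodes with at least 500 UMIs were kept, with no mitochondrial limit. Scrublet (scanpy 1.11.5, 6% expected) called 3, 17, 1 and 4 doublets in tumours 1 to 4, which were kept in the main setting and removed in an alternative. The cells held 766276, 723661, 528971 and 1253618 UMIs. Class lists and thresholds are as in the results. At the minimum of 2 genes stood 109 neuronal, 15 mitotic and 35 S-phase cells.

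UMIs were summed per tumour and class, or per tumour and cells with and without a gene's UMI, with that gene left out, and fitted with edgeR 4.0.16 in R 4.3.3: TMM, filterByExpr, quasi-likelihood test, tumour as a block, Benjamini-Hochberg over all genes tested at 0.05. The classes shared 1 fit, so the contrasts share the neuronal sums. Both sums of a tumour come from 1 sample: their deviations from the class means correlated at r of 0.77, 0.61, 0.69 and 0.76 for mitotic and neuronal cells over 5250 genes. The labels do not say that the samples came from separate litters or days, so p-values measure the spread between these samples. A standard error is the log2 difference divided by the square root of F. Alternatives were DESeq2 1.42.0, no filter on low counts, no block, cell and depth filters, thinning, left-out tumours and, added after the data were seen, neuronal cells alone and glial and other cells removed. CPM of 3′ counts is not per length, so levels of Meg3 and Miat are not compared with each other. Intervals are exact at 95% (Poisson or Clopper-Pearson). Genes named by rule were the members, Neurod1, Cntn2, Pde1c, Sstr2 and Abca4, list genes past 0.05, and the 5 most alike by r on log2(CPM + 50), from genes with at least 50 UMIs per tumour on average and states of at least 20 cells. Rian, Sf1, Srsf1 and Qk are list genes named though not past 0.05. The overlapping genes, Nhlh1, Nhlh2, the Cre row and the genes under other observations were named outside this rule.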

Additional observations from a re-analysis of the deposited data

Results flagged for a closer look

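Meg3 in S-phase cells of tumour 3 was at 9.80 CPM and in 1.30% of thinned cells, while tumours 1, 2 and 4 were at 0, which flagged this tumour. The zeros allow up to 53.7, 40.9 and 13.6 CPM, so 9.80 CPM lies within each limit. The value is 1 UMI. Miat in cells of other types was found in 6.67% of thinned cells in tumour 1 and in none in the other tumours, again a matter of few cells (1 of 15). The rule that flags a tumour marks every group of 4 tumours in which only 1 has a count, so no chance rate is given. In all, 24 groups were examined.

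Barcodes under 500 UMIs, which the comparisons leave out, also held both RNAs. Meg3 was at 241, 97.8, 262 and 167 CPM there in tumours 1 to 4, against 109.6, 62.2, 94.5 and 40.7 CPM in cells, higher in 4 of 4 tumours. Miat was at 678, 355, 503 and 303 CPM there, against 937, 599.7, 329 and 287 CPM in cells, lower in tumours 1 and 2 and higher in tumours 3 and 4. In the same barcodes the mitotic list was lower than in cells, at 6544, 6131, 2711 and 4641 CPM against 9155, 8909, 5775 and 7453 CPM. The neuronal list was at 10087, 7929, 11564 and 10438 CPM against 8819, 8036, 7823 and 6623 CPM. The part that cell makeup has in the Meg3 difference was not tested.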

How the results depend on the processing

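Of 189 test results under alternatives, 160 kept their direction and side of the threshold, 27 lost the call and 2 turned. The rises of Meg3 in neuronal cells held under 16 of 16 alternatives each (log2 2.02 to 3.005 against mitotic, 2.91 to 7.99 against S-phase cells, where the fits on tumours 1 and 2 alone and without tumour 3 have 0 S-phase UMIs of Meg3 and give no size), and those of Miat under 16 of 17 (0.72 to 1.46) and 15 of 17 (0.46 to 0.89).

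Without the tumour as a replicate block, calls were lost for Miat against mitotic (0.93) and S-phase cells (0.60), Meg3 and Miat by Neurod1 (1.35 and 0.50), Meg3 and Miat by Cntn2 (0.69 and 0.96) and Meg3 between the dividing classes (-3.25), and 0 genes were called in the Meg3 and in the Miat split. With tumours 1 and 2 alone, Miat against S-phase cells was 0.46. In neuronal cells alone, Miat by Neurod1 was 0.38. Miat by Meg3 turned to 0.17 with tumours 3 and 4 alone. The Cntn2 difference of Meg3 lost its call with DESeq2 (0.67), at a mitochondrial share up to 10% (0.51), with no filter (0.68), after thinning (0.70) and with tumours 1 and 2 (0.85) or 3 and 4 alone (0.56), turned to -0.28 in neuronal cells alone, and ranged from 0.47 to 0.86 with a tumour left out. The Meg3 difference between S-phase and mitotic cells lost its call with at least 3 distinct genes (-3.08), glial and other cells removed (-2.999), DESeq2 (-3.07), a mitochondrial share up to 10% (-2.73), thinning (-1.59), tumours 1 and 2 (-5.67) or 3 and 4 alone (-2.54), and ranged from -5.50 to -2.49 with a tumour left out. The -5.67 and -5.50 also come from 0 S-phase UMIs. Unthinned, Meg3 was found in 4.65% and Miat in 32.6% of cells.

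The 103 genes called with Meg3 became 56 with DESeq2, 24 at 1000 UMIs per cell, 258 with glial and other cells removed, 24 at a mitochondrial share up to 10%, 23 in neuronal cells alone, 368 with no filter, 160 with tumours 1 and 2, 37 with tumours 3 and 4, and 12 to 109 with a tumour left out. The 108 called with Miat became 20, 52, 46, 49, 10 and 217 under the first 6 of these, 48 after thinning, and 63 to 127 with a tumour left out. The causes were not tested. Meg3 was too low to test at 1000 UMIs per cell, and DESeq2 gave no adjusted p for Meg3 in the Miat split. The S-phase level of Meg3 rests on 1 UMI.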

Other observations

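A few genes, chosen after their values were seen, differed within neuronal cells. Fos, a transcription factor induced by activity and stress, was at 146, 53.9, 1057 and 1098 CPM in Meg3-positive cells of tumours 1 to 4 and at 80.7, 74.7, 484 and 155 CPM in Meg3-negative cells (log2 difference 1.49 ± 0.34, edgeR adjusted p = 0.0258). It was at 58.4, 31.8, 274 and 164 CPM in Miat-positive and at 131, 109.7, 678 and 251 CPM in Miat-negative neuronal cells, lower in 4 of 4 (-1.15 ± 0.22, edgeR adjusted p = 0.00498). Egr1 (-0.71 ± 0.17, edgeR adjusted p = 0.0408) and Jun (-0.64 ± 0.14, edgeR adjusted p = 0.0157) were lower with Miat as well and were not among the genes called with Meg3. The difference between the splits was not tested, and tumours 3 and 4 carried most of the Fos UMIs.

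The row named CRE-RECOMBINASE was lower in Meg3-positive cells. It was at 305, 347 and 1020 CPM in Meg3-positive cells of tumours 2, 3 and 4 and at 681, 995 and 1633 CPM in Meg3-negative cells. Tumour 1 had 5 of its UMIs in all. The log2 difference was -1.12 ± 0.27 (edgeR adjusted p = 0.0241), and -1.17 ± 0.27 within neuronal cells (edgeR adjusted p = 0.0276). In Miat-positive neuronal cells the difference was -0.17 ± 0.13 (edgeR adjusted p = 0.794).

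The 3 genes with the largest rise with Meg3 were Clu (4.48 ± 0.50), Serpine2 (3.30 ± 0.44) and Enpp2 (3.29 ± 0.39). Of the 144 Meg3-positive cells, 7, 21 and 14 had a UMI of these genes. Clu was at 16.4 CPM in Meg3-negative and 418 CPM in Meg3-positive cells, and passed the filter on low counts with the help of the positive sums. Ttr, known from choroid plexus, was higher as well (1.82 ± 0.33, edgeR adjusted p = 0.00311), with 977 UMIs in 14 Meg3-positive cells, and no list here covers that tissue. The 4 astrocyte-list genes tested had a median of 0.25, and none passed the edgeR test. Within neuronal cells Serpine2 (3.18) and S100b (2.74) were still higher. That class holds a Meg3-positive cell of tumour 1 with 11261 UMIs and 8 astrocyte-list genes, and S100b was found in 6 Meg3-positive cells of any class, so few cells can carry these values. Mycn was lower with Meg3, at 92.2 against 318 CPM (-1.77 ± 0.37, edgeR adjusted p = 0.00967), as was Ccnd2 (-1.41 ± 0.22). Over all cells 118 of 144 Meg3-positive and 1444 of 3078 Meg3-negative cells were neuronal, and the part of cell class in these differences was not tested. The genes of this paragraph were chosen after their values were seen.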
